A study of Mus musculus with 2 samples.

Results

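The insulin-like growth factor 1 (IGF1) axis was examined in the limb of the mouse embryo through 10 genes: the ligand Igf1, its receptor Igf1r, the binding protein genes Igfbp2 to Igfbp7, and the receptor substrates Irs1 and Irs2. They were chosen by symbol, through the Ensembl identifier of each row, and make up 10 of the 43346 annotated genes and 27 of the 103639 annotated transcripts in the tables. Total RNA was sequenced from limbs of B6NCrl embryos at embryonic day 14.5, in 2 libraries of 1 group, labelled biological replicates 1 and 2, with no treatment, mutant or second tissue. Input was 10 ng of total RNA above 200 nt per library, with spike-in RNAs, from the 4 limbs of a pup. By the labels the samples share their donor, pup and pregnancy identifiers, differ in collection day, and are of pooled sex. In the counts, 4 Y-linked genes summed to 6631 in replicate 1 and to 0 in replicate 2. Xist, the RNA that coats the inactive X chromosome, had 11.4 and 29957 counts. These counts go against the labels of pooled sex and of a shared pup. The libraries therefore differ in these sex-linked counts as well as in collection day, and all SDs are over n = 2 libraries. No comparison between conditions is possible.

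IGF1 and IGF2 are secreted growth factors that signal through the receptor tyrosine kinase encoded by Igf1r. The activated receptor phosphorylates docking proteins such as IRS1 and IRS2, which pass the signal to the PI3K and AKT branch and to the RAS and MAPK branch. Outside the cell, IGF-binding proteins hold the ligands, and proteases release them by cutting the binding proteins. In mice, loss of Igf1 or Igf1r reduces growth before birth, and the axis acts on both growth plate cartilage and skeletal muscle.

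Several short sequences help in reading the levels that follow. The first set shows the tail of Igf1, where exon 5 is skipped, included or extended, which decides the C-terminal E peptide of the precursor. Exon 5 is the 52 nt at chr10:87915298-87915349 (GRCm38, plus strand), it is coding, and capitals mark it. Because its length is not a multiple of 3, the coding part of exon 6 is 57 nt when exon 5 is skipped and 23 nt when it is included.
Igf1 exon 5 skipped: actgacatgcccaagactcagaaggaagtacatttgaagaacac
Igf1 exon 5 included: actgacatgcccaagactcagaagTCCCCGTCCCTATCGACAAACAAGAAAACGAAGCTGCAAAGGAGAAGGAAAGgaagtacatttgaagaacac
Igf1 exon 5 extended: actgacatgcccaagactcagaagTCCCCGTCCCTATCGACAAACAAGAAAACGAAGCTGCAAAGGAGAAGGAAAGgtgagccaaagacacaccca

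The second set shows the alternative starts of Igf1, known as class 1 and class 2, which give the signal peptide different first residues. Capitals mark the coding part of the class-specific exon, 63 nt in class 1 and 15 nt in class 2, and the lower case is the exon that both join.
Igf1 class 1: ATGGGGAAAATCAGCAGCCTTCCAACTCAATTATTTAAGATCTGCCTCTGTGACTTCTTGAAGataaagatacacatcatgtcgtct
Igf1 class 2: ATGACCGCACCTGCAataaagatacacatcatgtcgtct

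The third set shows the only stretch that separates a short noncoding transcript of Igfbp4 from its main coding transcript. Capitals mark the end of the first exon in each, and both continue into the same exon. In the noncoding transcript these 28 nt (chr11:99043597-99043624, plus strand) were the only bases outside the coding transcript, and the other 757 of 785 nt (96.4%) were shared with it.
Igfbp4 coding: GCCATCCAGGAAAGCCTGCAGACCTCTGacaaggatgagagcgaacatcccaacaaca
Igfbp4 noncoding: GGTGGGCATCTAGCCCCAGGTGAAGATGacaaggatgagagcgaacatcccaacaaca

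These sequences are the GENCODE M21 transcripts of GRCm38, and each transcript shown had the same length in the deposited tables.

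All 10 genes of the axis were detected, that is, had at least 1 TPM (the number of transcripts per fixed total, corrected for length) in both libraries, against 61.4% of 21461 nuclear protein-coding genes. Their median was 69.6 TPM, beside 18.6 TPM for the 13178 detected coding genes. Levels spanned 96.3-fold, with Igfbp4 at the top and Igfbp6 at the bottom. The libraries held 34193161 and 32879425 expected counts, of which the annotated genes had 32384779 and 31170323. The 10 genes took 0.251% and 0.257% of those annotated counts, and single genes had between 199 and 39956 counts. Since these are bulk samples, fewer cells of a type and less RNA per cell cannot be told apart.

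**Figure D1:**
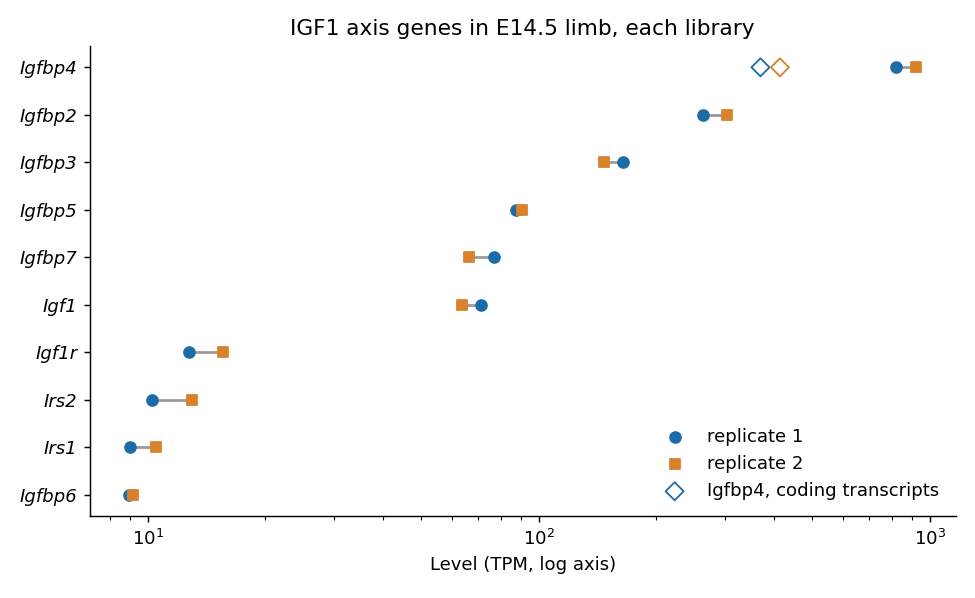
Level of each gene in each library, in TPM on a log axis. Circles are replicate 1 and squares replicate 2, joined by a line, and open diamonds give Igfbp4 from its coding transcripts alone (369 and 414 TPM). Igfbp4 sits highest in both libraries, at 822 and 923 TPM, and Igf1r, Irs2, Irs1 and Igfbp6 lie between 8.97 and 15.60 TPM.

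Igf1, the ligand (chr10:87858265-87937042, plus strand), had 71.23 TPM in replicate 1 and 63.73 TPM in replicate 2, a mean of 67.5 ± 5.30 TPM (SD, n = 2) from 9073 and 7389 counts. Its level was above that of 89.9% of nuclear coding genes. Igf2, the related ligand of fetal growth, had 1139.5 and 1112.12 TPM in the same libraries. The log2 ratio of Igf1 to Igf2 was −4.06 ± 0.09 (SD, n = 2), so Igf1 was 16.7-fold lower in level than Igf2. Of the Igf2 level, 48.85% and 49.54% was assigned to a short noncoding transcript (958 nt) whose bases all lie in exons of coding Igf2 transcripts. With coding transcripts alone, Igf2 had 560 and 536 TPM, and Igf1 was 8.12-fold lower (log2 ratio −3.02 ± 0.07, SD, n = 2), so the order of the ligands stayed the same while the size of the gap did not. The insulin genes Ins1 and Ins2 were listed at 0 in both libraries.

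Igf1r (chr7:67952827-68233668, plus strand) had 12.76 and 15.60 TPM, a mean of 14.2 ± 2.01 TPM (SD, n = 2), from 1288 and 1470 counts. The gene tables give its only transcript as 4489 nt, of which 4107 nt are coding, while GENCODE M21 extends the same transcript to 11409 nt. The level therefore rests mostly on the coding sequence. Insr, the insulin receptor, had 23.36 and 26.40 TPM, and the log2 ratio of Igf1r to Insr was −0.81 ± 0.08 (SD, n = 2), with Igf1r 1.75-fold lower. That order depends on how Insr is counted. The coding transcript of Insr had 3.54 and 3.92 TPM, and a retained-intron transcript of 1675 nt held 84.86% and 85.16% of the Insr level but only 48.8% and 49.4% of its counts. Against the coding transcript alone, Igf1r was 3.71-fold higher (log2 ratio 1.89 ± 0.10, SD, n = 2). The order of the receptor genes was thus reversed by the choice of transcripts, and in coding transcripts as annotated Igf1r was the higher. These transcripts are unlike in extent, since that of Insr has 9355 nt, of which 4116 nt are coding. The coding setting also leaves out the Insr reads placed on the retained-intron transcript, so the size of the 3.71-fold difference is uncertain. Of the retained-intron transcript, 1397 of 1675 nt (83.4%) lie in exons of coding Insr, so its share is uncertain. Igf2r, which clears IGF2, had 50.22 and 47.61 TPM, and Ghr, the growth hormone receptor, had 70.29 and 73.73 TPM.

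The substrates Irs1 and Irs2, the docking proteins below the receptor, were close to each other and to the receptor. Irs1 (chr1:82233101-82291416, minus strand) had 8.99 and 10.52 TPM, a mean of 9.755 ± 1.08 TPM (SD, n = 2), from 1869.11 and 2043.18 counts. Irs2 (chr8:10984681-11008458, minus strand) had 10.28 and 12.97 TPM, a mean of 11.6 ± 1.90 TPM (SD, n = 2). The values of the substrates overlapped between the libraries. Within each library Irs1 was a little lower than Irs2, with a log2 ratio of −0.25 ± 0.08 (SD, n = 2). This order is uncertain, because the predicted gene Gm9747 lies on the opposite strand wholly within the exons of Irs1 (chr1:82233112-82235933, 2822 of 9144 nt). Gm9747 had 2180.89 and 2044.82 counts, more than Irs1 itself in both libraries (by under 2 counts in replicate 2), and no strand is stated for the libraries, so reads from the pair cannot be told apart. With those reads added, Irs1 had 19.5 and 21.05 TPM, and the log2 ratio to Irs2 reversed to 0.80 ± 0.16 (SD, n = 2). Irs2 was counted over 4024 nt, of which 3963 nt are coding, while GENCODE M21 gives its transcript 6323 nt. Irs3 and Irs4, other members of the substrate family, were under 1 TPM in both libraries.

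The promoters of Irs1 and Irs2 share letters that the levels alone do not show. Irs2 is a known target of FOXO factors, which are known to bind insulin response elements such as TGTTTTG, and of factors that bind the E-box CACGTG. A search of RefSeq promoters of GRCm38.p6, from 250 bases before to 50 after each start, found CACGTG in 3 of the 10 genes (Igfbp2, Irs1 and Irs2) and TGTTTTG on either strand in 2 (Irs1 and Irs2). CACGTG reads the same on both strands and stood in 7.15% of all 32851 promoters, TGTTTTG in 6.28%, and both in 0.408%. For Igf1 the window searched lies beside the class 2 exon, and the class 1 start was not searched. In Irs1 the first TGTTTTG shares 2 bases with the E-box, and a second copy begins 32 bases before the start. In Irs2 and Irs4 a single base separates the motifs, and Igfbp1 has the reverse complement of TGTTTTG alone. Of the other promoters searched outside the axis, those of Irs3 and Igf2 had neither motif. The promoter of Igf2r had 2 copies of CACGTG and no TGTTTTG. The windows below each end before the RefSeq start and run 5′ to 3′ along the gene, with both motifs in capitals.
Irs1 promoter window, chr1:82291518-82291577, minus strand: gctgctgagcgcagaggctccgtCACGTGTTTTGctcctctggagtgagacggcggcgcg
Irs2 promoter window, chr8:11008934-11008993, minus strand: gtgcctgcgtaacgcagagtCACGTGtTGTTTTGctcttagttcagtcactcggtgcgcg
Irs4 promoter window, chrX:141725332-141725391, minus strand: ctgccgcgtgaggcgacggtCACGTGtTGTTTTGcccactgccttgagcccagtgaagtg
Igfbp1 promoter window, chr11:7197652-7197711, plus strand: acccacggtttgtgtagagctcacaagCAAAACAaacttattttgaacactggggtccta

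These windows span detected genes (Irs1 and Irs2), a gene with few reads (Igfbp1) and a gene under 1 TPM (Irs4). A match is a description of the letters and not evidence of binding.

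The binding protein genes covered the whole range of levels in the axis. Igfbp4 (chr11:99041244-99054392, plus strand), whose product inhibits IGF action until the protease PAPPA cuts it, had 821.99 and 923.08 TPM, a mean of 873 ± 71.5 TPM (SD, n = 2). It ranked 97 among nuclear coding genes and made up 58.8% of the summed level of Igfbp1 to Igfbp7. Counted by coding transcripts alone in every gene, Igfbp4 ranked 250 and made up 39.0% ± 1.5 (SD, n = 2) of that sum. Igfbp2 (chr1:72824503-72852474, plus strand), an abundant binding protein of the fetus, followed with 263.70 and 303.34 TPM, a mean of 284 ± 28.03 TPM (SD, n = 2) and 19.1% of that sum. Igfbp3 (chr11:7206086-7213923, minus strand), the main carrier of IGFs in adult blood, had 164.63 and 146.92 TPM, a mean of 156 ± 12.5 TPM (SD, n = 2) and 10.5% of the sum. These 3 genes did not overlap with each other or with any lower gene in their values over both libraries.

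Igfbp5 (chr1:72857932-72874884, minus strand), expressed in developing muscle and bone, had 87.52 and 90.67 TPM, a mean of 89.1 ± 2.23 TPM (SD, n = 2). Igfbp7 (chr5:77349240-77408041, minus strand), a related protein with low affinity for IGFs, had 76.92 and 66.44 TPM, a mean of 71.7 ± 7.41 TPM (SD, n = 2), and overlapped with Igf1. Exons of Igfbp7 share 85 nt with Polr2b on the opposite strand, so a small part of its reads could belong to that gene. Igfbp6 (chr15:102144362-102149511, plus strand), which prefers IGF2, had 8.97 and 9.15 TPM, a mean of 9.06 ± 0.127 TPM (SD, n = 2), from 209 and 199 counts. It made up 0.612% of the summed binding protein level. Of the 9 pairs of neighbours in the order of the 10 genes, 5 were separate in their values and 4 overlapped. The overlapping pairs were Igfbp7 and Igf1, Igf1r and Irs2, Irs2 and Irs1, and Irs1 and Igfbp6. Compared within each library, every pair, as listed, had the same order in both libraries.

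Binding protein genes that neighbour each other in the genome differed in level. Igfbp5 and Igfbp2 lie tail to tail on chromosome 1, 5457 nt apart with no annotated gene between them, and Igfbp5 was 3.17-fold lower than Igfbp2 (log2 ratio −1.67 ± 0.11, SD, n = 2). Igfbp3 and Igfbp1 lie tail to tail on chromosome 11, 3539 nt apart with no annotated gene between them. Igfbp1, a binding protein known for its expression in liver, had 1.22 and 1.34 TPM from 40 and 41 counts. Igfbp3 was 113-fold higher than Igfbp1 (log2 ratio 6.82 ± 0.20, SD, n = 2, with 0.1 TPM added to each value). The log2 ratio was 6.10 with 1 TPM added, because Igfbp1 is near that value. Liver markers did not exceed 1 TPM in both libraries for any of 5 genes, and they summed to 1.62 and 1.56 TPM.

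Set against both ligands, the binding proteins Igfbp2 to Igfbp6 summed to 1346.81 and 1473.16 TPM, and Igf1 and Igf2 summed to 1210.73 and 1175.85 TPM. The log2 ratio of the sums was 0.24 ± 0.12 (SD, n = 2). With coding transcripts of every gene it was 0.59 ± 0.13 (SD, n = 2). It was −0.36 when Igfbp4 alone was restricted to coding transcripts, with the noncoding Igf2 transcript still in the ligand sum. The sign was thus positive where both sums were treated alike and negative where Igfbp4 alone was changed. The sums are RNA levels and say nothing of the amounts of protein.

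At the transcript level, 4 of the 10 genes had a single transcript, and in 8 of 10 the leading transcript held over 95% of the gene's TPM. The exceptions were Igfbp4 and Igf1. The long coding transcript of Igfbp4 (3831 nt) had 362.02 and 404.33 TPM, which is 44.04% and 43.80% of the gene. Its short noncoding transcript (785 nt) had 451.21 and 508.12 TPM, 54.89% and 55.05% of the gene. In expected counts the order was the opposite, with 81.2% and 81.1% on the coding transcript and 18.6% and 18.7% on the noncoding one. A share of TPM divides counts by length, so a short transcript gains weight, and of its bases only the 28 nt shown above lie outside the coding transcript. Counted by coding transcripts alone, Igfbp4 had 368.97 and 413.79 TPM, a mean of 391 ± 31.7 TPM (SD, n = 2). With every Igfbp4 read placed on the long coding transcript it had 446 and 499 TPM. Igfbp4 was above all other genes of the axis in each case.

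**Figure D2:**
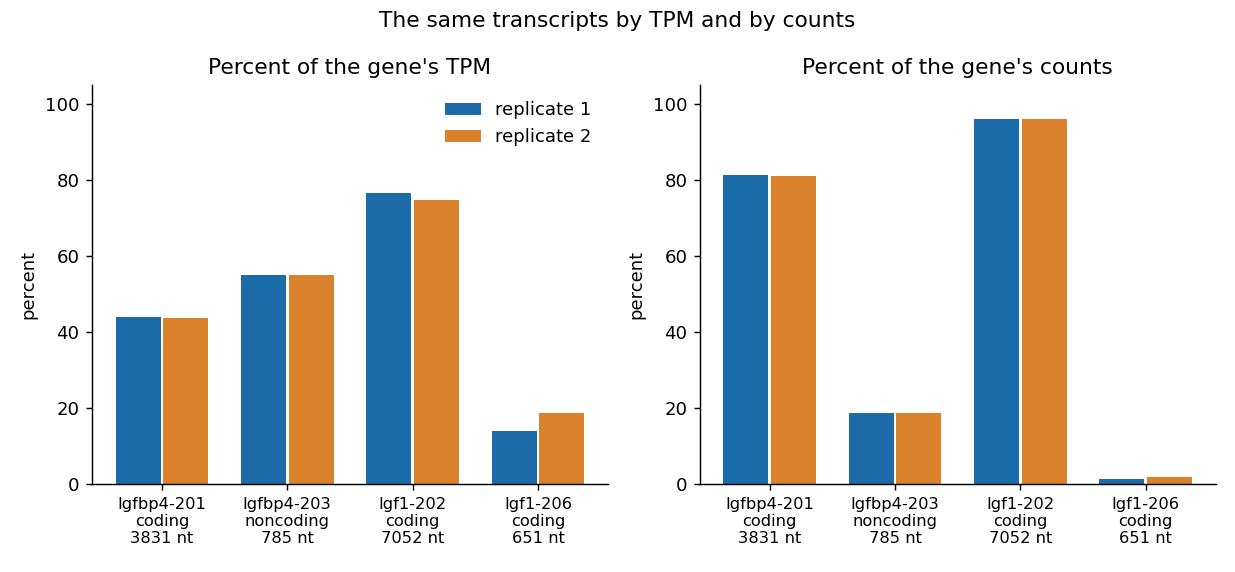
Share of each leading transcript in its gene, as percent of TPM on the left and percent of expected counts on the right, with replicate 1 left of replicate 2 in each pair of bars. The noncoding Igfbp4 transcript holds 54.89% and 55.05% of TPM but 18.6% and 18.7% of counts, and the long class 1 transcript leads Igf1 on both scales.

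By the deposited estimates, most Igf1 RNA was assigned to the form of class 1 with exon 5 skipped. The longest transcript (7052 nt), which has this form, had 54.54 and 47.58 TPM, 76.57% and 74.66% of the gene, and 96.1% of its counts in each library. A transcript of 651 nt, of class 2 with exon 5 included, had 9.88 and 11.82 TPM, 13.87% and 18.55% of the gene, but only 125.38 and 140.03 counts. The deposited credibility bounds of that short transcript were 4.00 and 13.3 TPM in replicate 1 and 7.05 and 14.2 TPM in replicate 2, so the libraries were not separated. Grouped by start, the 3 class 1 transcripts held 79.7% and 75.6% of Igf1 TPM and the 5 class 2 transcripts 20.3% and 24.4%. In counts, class 2 held 3.01% and 3.65%. Grouped by tail, transcripts without exon 5 held 81.1% and 78.0% of TPM, transcripts with it 16.9% and 19.3%, and the transcript in which exon 5 is extended 1.94% and 2.73%. On the scale of counts, transcripts with exon 5 held 2.26% and 2.10%. Class 1 and the form without exon 5 led on both scales, while the size of the minor forms depended on the scale. The lead in counts is partly set by the annotation. The last exon of the longest transcript has 6368 nt, and no other Igf1 transcript is longer than 2292 nt in all. Reads found only in that exon are assigned to class 1 without exon 5, whatever their true start or tail. Reads over the class-specific exons and the exon 5 junctions were not counted separately. Class 1 transcripts are known as the common form outside the liver.

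**Figure D3:**
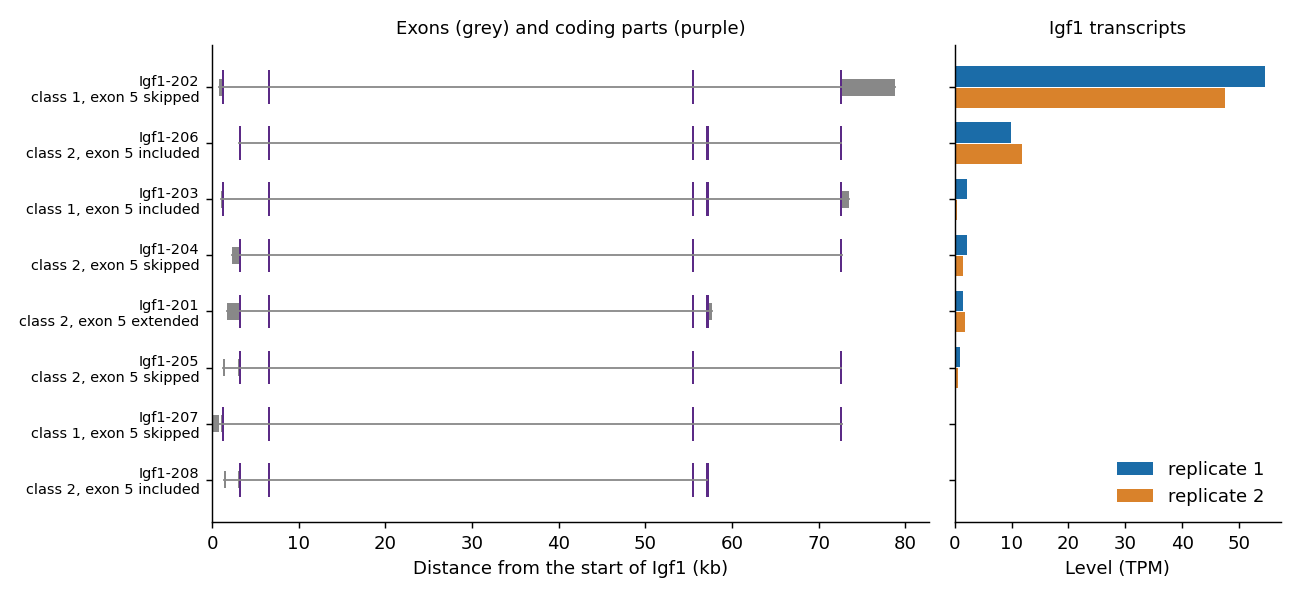
The 8 transcripts of Igf1, with exons in grey and coding parts in purple against the distance from the start of the gene in kb, and the TPM of each in both libraries as bars. Narrow exons are drawn at a minimum width so that they can be seen. The top transcript, with the long last exon, has 54.54 and 47.58 TPM, and the one under it 9.88 and 11.82 TPM.

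The remaining genes of the axis differed little in transcript use. The leading transcript held 97.05% and 97.69% of Igfbp3, and the other Igfbp3 transcript encodes the same 876 nt of coding sequence. It held 99.61% and 99.58% of Igfbp2, and 99.65% and 99.74% of Igfbp5. It held 99.70% of Igfbp7 in replicate 1 and all of it in replicate 2.

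The libraries were then compared with each other, replicate 1 over replicate 2. With 1 library on each side, an exact binomial test of counts covers counting error only and compares these libraries, not conditions. In the binomial test with Benjamini-Hochberg adjustment over all genes, 8 of the 10 genes were called, 3 higher and 5 lower in replicate 1, where 27.5% of 19153 genes tested were called, 14.8% higher and 12.7% lower. In size, the median absolute log2 difference of the 10 genes was 0.18, beside 0.15 over 19075 tested genes with counts in both libraries. By edgeR's exact test, which takes the typical difference between these libraries as error (a biological coefficient of variation of 0.0992), 0 of the 10 genes were called, against 0.668% of 16920 genes (0.491% higher and 0.177% lower), and 0 had an unadjusted p under 0.05 (lowest 0.173).

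Igfbp7, Igf1 and Igfbp3 were higher in replicate 1. The log2 difference was 0.29 for Igfbp7 (95% interval for counting error 0.19 to 0.39, binomial adjusted p = 2.24e-07, 1806 and 1456 counts). For Igf1 it was 0.28 (interval 0.23 to 0.32, adjusted p = 3.91e-32). For Igfbp3 it was 0.24 (interval 0.19 to 0.28, adjusted p = 1.09e-23). Each of these 3 genes lay outside the 25th to 75th percentiles of all genes, −0.15 to 0.16.

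Irs2, Igf1r, Irs1, Igfbp2 and Igfbp4 were lower in replicate 1. The log2 difference was −0.26 for Irs2 (binomial adjusted p = 0.000582), −0.21 for Igf1r (adjusted p = 0.00102) and −0.15 for Irs1 (adjusted p = 0.007). The call of Irs1 depends on the reads it may share with Gm9747: with both genes counted together (4050 and 4088 counts), the log2 difference was −0.03 (interval −0.10 to 0.03, adjusted p = 0.473), and 7 of the 10 genes were called. It was −0.12 for Igfbp2 (adjusted p = 2.27e-06) and −0.08 for Igfbp4 (adjusted p = 3.30e-14). Igfbp4 had 38264 and 39956 counts, and at that depth a 1.06-fold difference passed the binomial test. Igfbp5 (log2 difference 0.03, adjusted p = 0.305) and Igfbp6 (0.05, adjusted p = 0.855) were not called. The interval of Igfbp6 ran from −0.24 to 0.34, so a difference as large as that of any other gene of the axis except Irs2 was within its counting error.

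**Figure D4:**
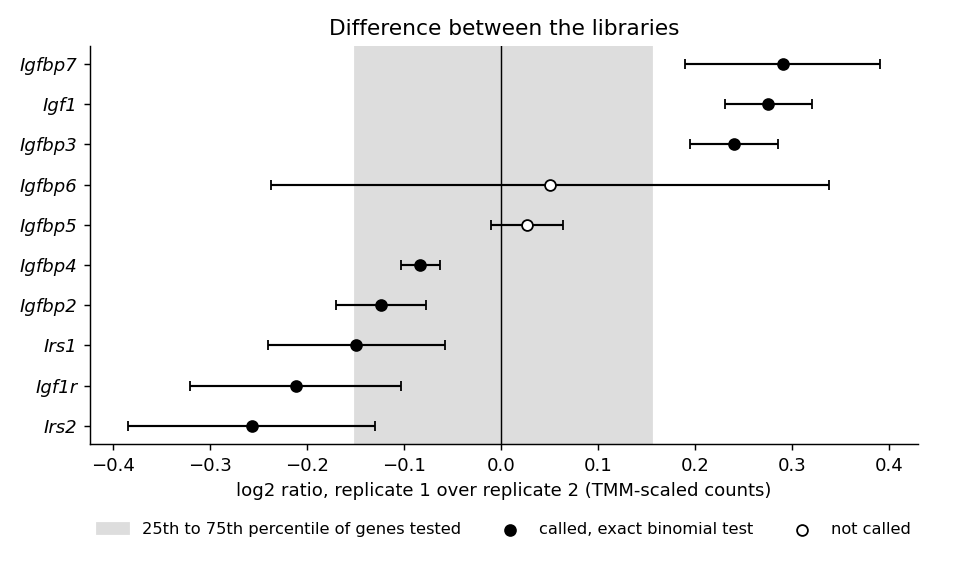
Log2 ratio of replicate 1 over replicate 2 for each gene, from counts scaled by the TMM method, with bars for the exact 95% counting interval. Filled points were called by the exact binomial test, open points were not, and the grey band spans the 25th to 75th percentiles of tested genes (−0.15 to 0.16). Igfbp7, Igf1 and Igfbp3 lie right of the band and Igf1r and Irs2 left of it.

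Cell type markers also moved between the libraries. All 6 skeletal muscle markers were higher in replicate 1 by the binomial test, and they summed to 2137.48 and 1472.61 TPM. All 6 red blood cell markers were higher too, with sums of 25920 and 17224 TPM, as were all 6 epidermis markers (1009.61 and 897.28 TPM) and 3 of 5 markers of bone-forming cells (247.74 and 192.09 TPM). Of the 6 cartilage markers 4 were higher and 1 was lower, of the 6 mesenchyme and fibroblast markers 3 were higher and 3 lower, and of the 5 tendon markers 1 was higher and 2 were lower. None of 5 endothelial markers was called, and 1 of 5 macrophage markers was higher. By edgeR's exact test 1 muscle and 2 red blood cell markers were called. The part of these cell types in the differences of the IGF axis genes was not tested, and it cannot be told apart from sex-linked or other differences between the embryos. The limb label fitted its markers, since all markers of muscle, cartilage, mesenchyme, tendon, bone and epidermis were detected, while 0 of 4 lung markers and 2 of 4 heart markers were, the detected pair being the troponin genes Tnnt2 and Tnni3.

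Of the 63 other genes in the pathway lists, 56 were detected in both libraries and 7 were under 1 TPM in both. All 4 receptors, all 9 genes of the mTOR branch, all 10 of the RAS and MAPK branch, all 6 of the growth hormone branch and all 6 that act on the cleavage of binding proteins were detected. Detection covered 7 of 9 adaptors, with Irs1 and Irs2 among them, and 16 of 17 genes of the PI3K, AKT and FOXO list, where the catalytic subunit gene Pik3cb was under 1 TPM. Igfals, whose product joins the ternary complex of IGF and IGFBP3 in blood, and Igfbpl1 were also under 1 TPM.

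Among the proteases and their regulators, Htra1, a serine protease, was highest with 184.63 and 177.36 TPM. Of the metalloproteases listed, Pappa had 1.35 and 1.47 TPM, Pappa2 had 2.90 and 2.31 TPM and Adam12 had 12.22 and 11.62 TPM. Stc1, which encodes a stanniocalcin that inhibits PAPPA, had 8.30 and 8.80 TPM. Grb10, an adaptor that dampens IGF1 and insulin signalling, was the highest adaptor with 178.67 and 175.50 TPM, above Irs1 and Irs2. Shc1, which links the receptor to the RAS branch, had 55.55 and 61.28 TPM, and Grb2 had 42.67 and 38.93 TPM.

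Downstream, Akt1 had 113.85 and 138.63 TPM and Akt2 86 and 91.14 TPM, and Pik3r2, a regulatory subunit of PI3K, had 56.53 and 57.36 TPM. In the mTOR branch, Rheb, the activator of mTOR, had 157.18 and 161.99 TPM, Eif4ebp1 had 126.84 and 113.95 TPM and Rps6kb1 had 45.18 and 55.31 TPM. In the MAPK branch, Map2k2 had 134.39 and 151.39 TPM and Hras had 109.62 and 104.00 TPM. Socs2, which restrains growth hormone signalling, had 40.73 and 40.69 TPM, and Stat5b had 16.69 and 16.66 TPM. These levels were above the listed levels of the receptor and substrates in both libraries for each gene named in this paragraph. With the reads of Gm9747 added, however, Irs1 (19.5 and 21.05 TPM) was above Stat5b in both libraries. Between the libraries, 59 of the 63 genes could be tested, and 12 were higher and 10 lower in replicate 1 by the binomial test, with a median log2 difference of −0.03, where 14.8% of all genes tested were higher and 12.7% lower. By list, with genes of the axis included, 3 of 6 cleavage genes were higher and 0 lower, 0 of 17 PI3K, AKT and FOXO genes higher and 3 lower, and 2 of 9 mTOR genes higher and 3 lower. In the RAS and MAPK list 3 of 10 were higher and 2 lower, among adaptors 1 of 9 higher and 4 lower, in the growth hormone list 1 of 6 higher and 0 lower, and among receptors 1 of 4 higher and 1 lower. Of the 4 ligand genes 2 could be tested, Igf1 and Igf2, and 2 were higher and 0 lower. Of the 9 binding protein genes 7 could be tested, and 2 were higher and 2 lower. EdgeR's exact test called 0 in every pathway list.

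**Figure D5:**
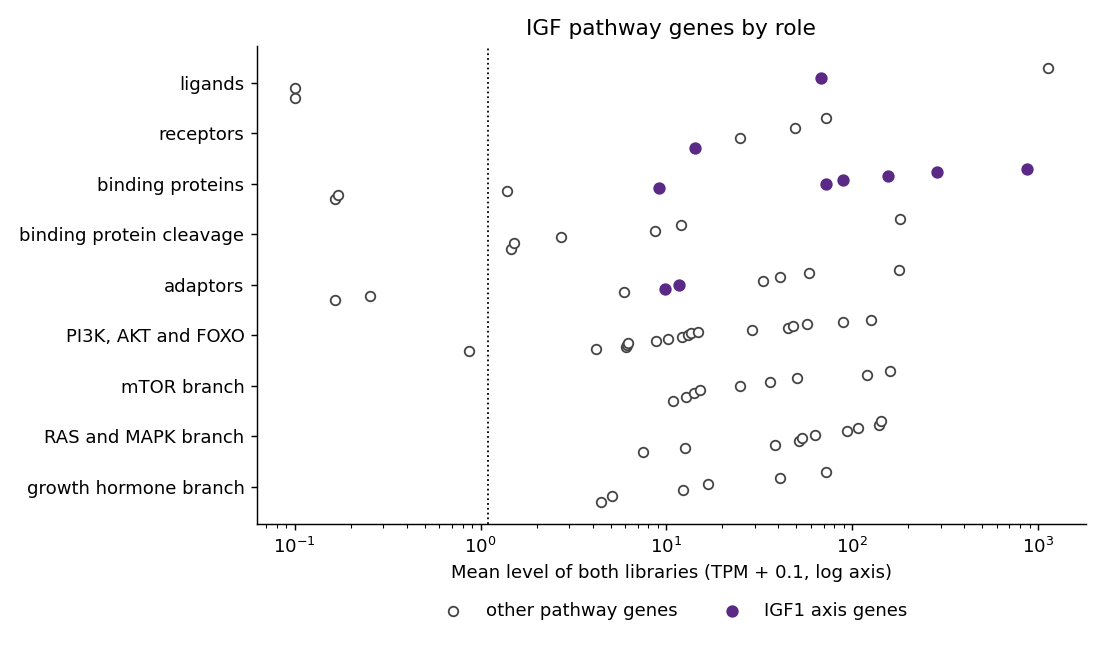
Mean level of both libraries for each pathway gene by role, in TPM with 0.1 added, on a log axis. Filled points are the 10 genes of the axis, open points other genes, and the dotted line marks 1 TPM. Igf2 is highest among ligands, Igfbp4 among binding proteins and Grb10 among adaptors.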

How the data were processed

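Total RNA of E14.5 limb was measured in 2 libraries of 1 group. The authors deposited, per the file headers, expected counts (estimated reads that need not be whole), TPM values (per length and scaled to a fixed total over all features), posterior mean TPM, credibility bounds and each transcript's percent of the TPM of its gene. The build was mm10 with annotation M4, per the notes deposited beside each table; the aligner, quantification program and strand, not given in the sources used here, were not assumed. Such programs split shared reads between transcripts by estimate, so short transcripts nested in longer exons are uncertain.

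Symbols, types and exons came from GENCODE M21 (42462 of 43346 identifiers matched; 23 of 27 transcripts had equal lengths), and promoters from RefSeq. Levels are per library, with mean ± SD. Ratios used log2(TPM + 0.1). Expected counts were rounded for count tests, over genes whose counts summed to 10 or more, with TMM library sizes, Benjamini-Hochberg adjustment and a threshold of 0.05. TPM ratios and TMM-scaled counts are unlike scales, since TPM is per length and set to a fixed total. They can differ in direction where the difference is small. Igfbp5 had 87.52 and 90.67 TPM but a log2 difference of 0.03 in scaled counts. Igfbp6 had 8.97 and 9.15 TPM but a log2 difference of 0.05. Scripts used Python 3.11.15, scipy 1.17.1, R 4.3.3, edgeR 4.0.16 and DESeq2 1.42.0 (size factors alone), and the count tests were tested on simulated data. Intervals cover counting error only.

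The 10 genes and all lists were chosen with earlier results of these data known. Named pathway genes were the 3 of highest mean TPM in each list (1 gene is not reported here), the genes of the ratios and genes under 1 TPM; Pappa, Pappa2, Gm9747, the noncoding transcripts of Igf2 and Insr, the motifs and the sex-linked genes were chosen after values were seen.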

Additional observations from a re-analysis of the deposited data

How the results depend on the processing

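Of 168 alternative values, 128 stayed within the main result, 24 moved, 9 were weaker and 7 reversed. The alternatives on coding transcripts, on all reads of Igfbp4 and on Gm9747 were chosen after seeing the data. With coding transcripts of every gene alone, the log2 ratio was −3.02 for Igf1 over Igf2, 0.59 for the summed binding proteins over ligands, and reversed to 1.89 for Igf1r over Insr. The summed ratio reversed to −0.36 with the coding transcripts of Igfbp4 alone and to −0.24 with all Igfbp4 reads on the long coding transcript. Both of these settings left the ligand sum unchanged, with the noncoding Igf2 transcript in it. Irs1 over Irs2 reversed to 0.80 with the reads of Gm9747. The ratio of Igfbp3 over Igfbp1 moved to 6.10 with a pseudocount of 1, and the median level to 93.1 TPM when TPM was rescaled over nuclear protein-coding genes. The library difference of Igfbp5 reversed to −0.0073 with total counts and −0.034 with spike-in counts, and that of Igfbp6 to −0.011 with spike-in counts; neither was called. By edgeR's exact test 0 genes of the axis were called instead of 8, and the lowest unadjusted p was 0.173. The count was 8 under the other scalings and with no filter, and 7 with the reads of Gm9747 added to Irs1. With 2 libraries, leaving out either returns the other's value, which always lies within the SD and shows nothing of stability. No paired analysis was possible because there is 1 group. Igf1r, Irs2 and Irs1 overlap as neighbours between the libraries, and transcript assignment (Insr) and unknown strand (Irs1) also bear on their order. Depth limits Igfbp6 and Igfbp1.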
